A study of Mus musculus with 26 samples.

Results

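The 173 genes described here are those that reached a high level when mouse embryonic fibroblasts were given Oct4 (gene symbol Pou5f1), Sox2 and Klf4, and that stayed lower when the AP-1 subunit Jun was given as well. They were chosen from 18198 genes by 4 conditions on group means of log2(value + 1). The mean on day 7 of the 3 factors (OSK) had to exceed that on day 0 by at least 3, had to exceed that of OSK with added Jun (OSK+cJun) on day 7 by at least 2, and could not be below that on day 3, and the mean value at OSK day 7 had to be at least 30. In all, 374 genes met the conditions on the rise, on day 3 and on the level. Of these, 173 are the members, and the other 201, which were less than 2 lower with added Jun, are called the other risers below. The choice used the libraries of OSK days 0, 3 and 7 and of OSK+cJun day 7, so differences among those 4 groups are given as descriptions, with no test.

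The data are mRNA levels in 26 libraries, 2 for each of 13 groups. MEF are mouse embryonic fibroblasts at passage 2, grown in medium with fetal bovine serum, and no strain is labelled for them. For the OSK and OSK+cJun groups, fibroblasts within 2 passages were infected with retrovirus made in PlatE packaging cells and kept in iCD1 or in serum and LIF medium; the labels do not say in which. OSK was sampled on days 0, 1, 3, 5 and 7 and OSK+cJun on days 0, 1, 3 and 7. A further group had OSK and a lentiviral short hairpin against Sap30 (OSK+shSap30), sampled on day 7, with no group labelled as a control hairpin. Its libraries are numbered apart from the others in the series, and it is not labelled whether they were made together with them. The induced pluripotent stem cells (iPSC, passages 5 to 8) came from picked colonies, and the embryonic stem cells (ESC, passages 20 to 24) were of strain CBA/CaJ X C57BL/6J, both kept in N2B27 with 2i and LIF. The reprogramming groups are bulk cultures, so that fewer cells with a transcript and less transcript per cell cannot be told apart. The labels do not say whether the 2 replicates of a group were separate cultures, so p-values measure the spread between these libraries, which may be technical.

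The deposited values are a normalised score with the same distribution in every library, so the depth of a library cannot be read from them. Pou5f1 was at 11662 and 8974 at OSK day 0 against 2 and 0 in MEF, so day 0 already carried the factors. Jun was at 1010 and 582 at OSK day 7 and at 8981 and 6124 at OSK+cJun day 7. Sap30 was at 82 and 91 at OSK day 0, 301 and 378 at OSK day 7, 74 and 93 at OSK+cJun day 7 and 20 and 41 with the hairpin. The 2 arms set against OSK on day 7 were thus both lower in Sap30. The replicate 1 library of OSK day 5 stood apart in the delivered factors, with Pou5f1 at 656 against 21544 in replicate 2, Sox2 at 1792 against 6116 and Klf4 at 3263 against 11663. Counts over all members that rest on OSK day 5 are therefore also given without that library. No gene given below with its fold and adjusted p lost its call without it. Of the members named below as lower with the hairpin than at OSK day 5, not all kept their call. The 30 fibroblast markers examined summed to 185880 and 189992 in MEF and to 13062 and 24012 in ESC, while Nanog was at 8 and 6 in MEF and at 5023 and 4616 in ESC.

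As background, Pou5f1, Sox2 and Klf4 bind enhancers of the pluripotency network and can return a somatic cell to a stem cell state, a course in which fibroblast genes are shut, epithelial genes open and late pluripotency genes such as Nanog come on last. Jun pairs with Fos family proteins to form AP-1, which is active in fibroblasts and binds the enhancers that keep fibroblast genes on. Sap30 is a subunit of the Sin3 complex, a corepressor that carries histone deacetylases.

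Across the 173 members the median value at OSK was 2 and 3 in the day 0 libraries, 6 and 5 on day 1, 20 and 28 on day 3, 43 and 64 on day 5 and 109 and 131 on day 7. With added Jun it was 2 and 1 on day 0, 2 and 3 on day 1, 3 and 4 on day 3 and 12 and 12 on day 7. The OSK course therefore climbed from day 1 on, and the OSK+cJun course had reached on day 7 less than the OSK course on day 3. With the Sap30 hairpin the median was 52 and 60, in iPSC 47 and 47, in ESC 72 and 71 and in MEF 2 and 1. The medians under the hairpin and in the pluripotent lines thus stood between those of OSK day 3 and day 7.

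**Figure D1:**
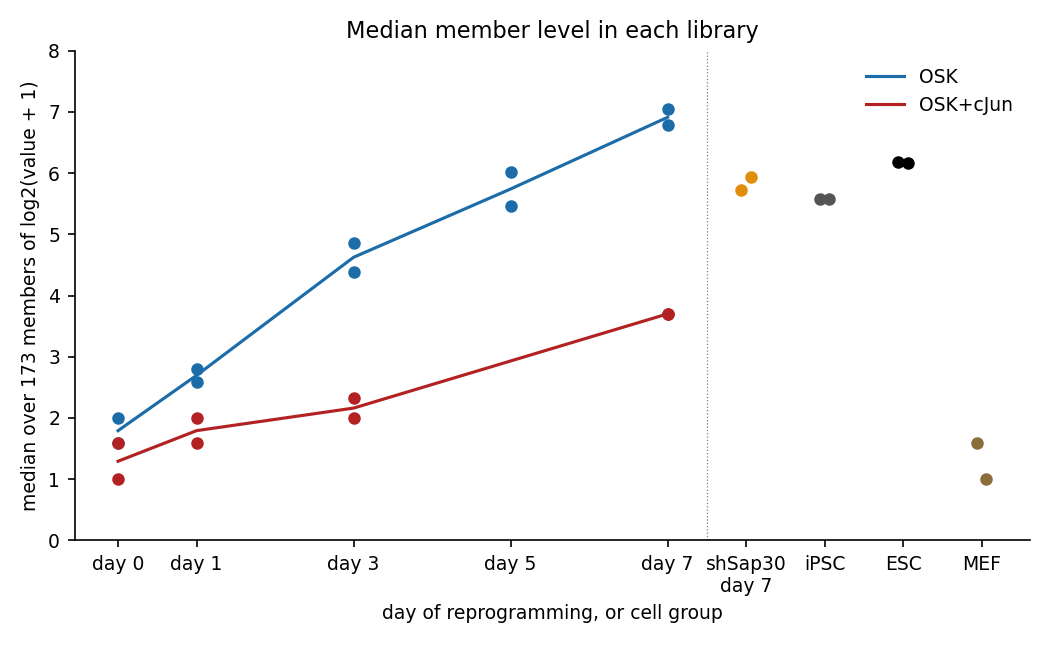
Median over the 173 members of log2(value + 1) in each library, with 1 point per library and lines through the mean of the 2 points; the horizontal axis gives the day of reprogramming or the cell group. The OSK and OSK+cJun courses were chosen to differ on day 7, where the median member value was 109 and 131 against 12 and 12.

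On the log2 scale the day 7 to day 0 difference used for the choice ran from 3.02 to 10.75 with a median of 5.08, and the day 7 OSK to OSK+cJun difference from 2.02 to 6.23 with a median of 3.25. These differences understate changes of low genes, and 40 members were listed at 0 in both day 0 libraries. Both OSK+cJun libraries lay below both OSK libraries on day 7 for 168 members, a share that the choice fixes, against 28.9 percent of the 16038 tested genes. The members just inside the rise condition were Slc1a3 (3.02), Mageb16 (3.06) and Mdk (3.07), and the genes just outside it were Slc35g1 (2.99), Chia1 (2.96) and Ptpn6 (2.93). At the Jun condition St14 (2.02), Pip5k1b (2.06) and Minar2 (2.07) were in, and H2-Ab1 (2.00), St8sia1 (1.96) and Slain1 (1.96) were out. At the level condition Nkx1-2 (30.5), Cd3g (33.0) and Mageb16 (34.5) were in, and Tmem130 (27.0), Tmem266 (27.0) and Adgrb1 (26.5) were out.

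To see how far the choice rests on single libraries, the 4 conditions were applied to replicate 1 alone and read in replicate 2. They chose 174 genes, of which 134 differed by at least 2 between OSK and OSK+cJun on day 7 in the replicate not used, with a median of 3.09, and 133 by at least 3 between days 7 and 0. On replicate 2 alone the conditions chose 192 genes, of which 139 and 151 met those thresholds in replicate 1, with a median Jun difference of 2.81. Over all tested genes the median Jun difference in the replicate not used was 0.00 and 0.01. Of the genes chosen on either replicate alone, 107 were chosen on both, and all of those are members.

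Members differed in when they came up. Taking the first sampled day at which the mean log2 level was past the midpoint between days 0 and 7, 16 members reached it on day 1, 74 on day 3, 49 on day 5 and 34 on day 7. The day 7 group held Nanog, Esrrb, Dppa5a, Cldn3, Cldn7, Rab25, Esrp1 and Ap1m2, and the day 1 group held Smagp, Ahsg, Btla and Pip5k1b. For 23 members the day 5 mean was above that of day 7. With added Jun the level on day 7 was still at least 1 above day 0 for 128 members and at least 3 above for 43, so most members were lower with Jun rather than flat.

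**Figure D2:**
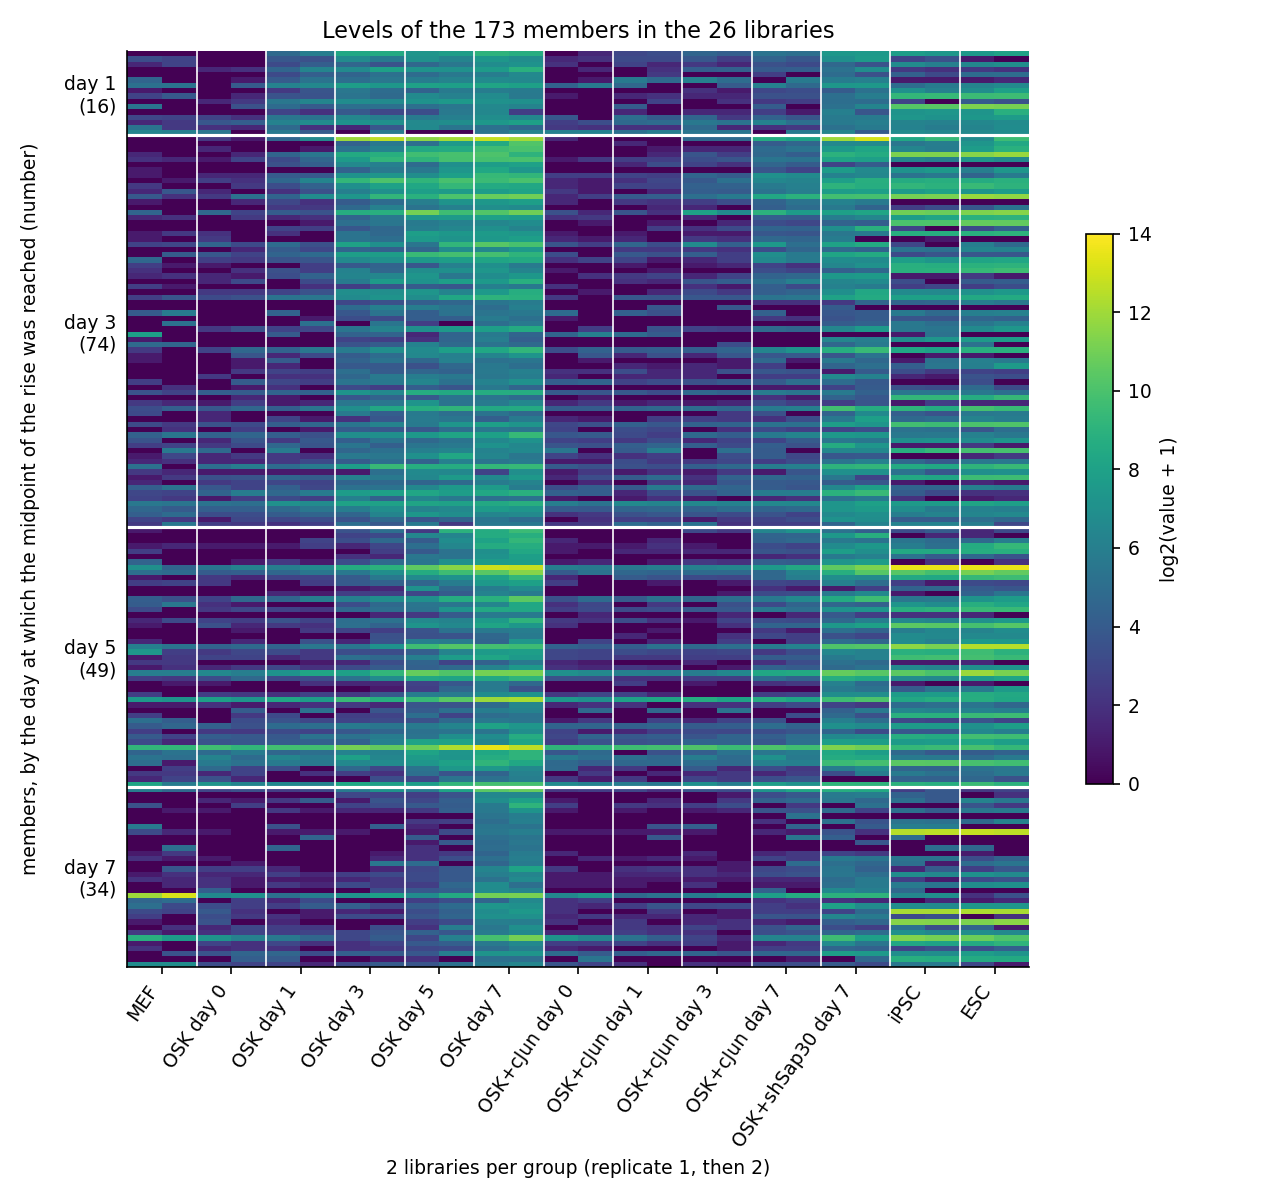
Level of each of the 173 members, as log2(value + 1) on the colour scale, in the 26 libraries; rows are grouped by the day at which the midpoint of the rise was reached (16, 74, 49 and 34 members) and columns hold the 2 libraries of each group. The 34 members at the bottom are mostly dark until OSK day 7, and the OSK+cJun columns are darker than the OSK columns of the same day from day 1 on.

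Of the 173 members, 151 are annotated as protein coding, and 27 carry model, clone or no symbols and are counted but not named. They lie on 20 chromosomes, and 77 overlap another annotated gene, whose reads cannot be told apart where the count did not use strand. Chromosome positions below are in the mm10 (GRCm38) build. Some members are neighbours within 100000 bases of each other. Bhmt (chr13:93616675-93637961), Bhmt2 (chr13:93655720-93674302) and Dmgdh (chr13:93674433-93752833) form a run on chromosome 13, in which Bhmt2 and Dmgdh are transcribed away from each other from starts 130 bases apart. Apobec1 (chr6:122577792-122602444), Gdf3 (chr6:122605403-122610087) and Nanog (chr6:122707489-122714633) lie on chromosome 6 with 2958 bases between Apobec1 and Gdf3 and 97401 between Gdf3 and Nanog, and Cldn4 (chr5:134945119-134946934) and Cldn3 (chr5:134986214-134987472) on chromosome 5 with 39279 between them. The others are Tprn, Grin1 and Entpd2 together, Ppp1r14d with Spint1, and Lbp with Snhg11 on chromosome 2, En2 with Cnpy1 on chromosome 5, and Mylpf with Sept1 and Nkx1-2 with Lhpp on chromosome 7.

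Promoter sequence was looked up in RefSeq (GRCm38.p6) windows from 250 bases before to 50 after a start, which were found for 112 members, with 141 windows in all. Exact matches on either strand were counted for 6 short motifs of the factors concerned, and no match of one overlapped a match of another in these windows. The Klf motif GGGTGTGG was in 9.93 percent of member windows, 2.16 percent of the windows of the other risers, 3.69 percent of those of the tested genes and 3.56 percent of all 32851 windows. The octamer ATGCAAAT, the Oct4 motif, was in 3.55, 2.16, 1.46 and 1.74 percent in the same order, and the AP-1 motif TGANTCA in 8.51, 7.57, 5.7 and 7.81 percent. The E-box CACGTG was in 11.3, 4.32, 9.33 and 7.15 percent, and the Esrrb motif TCAAGGTCA in 0.709, 0, 0.273 and 0.423 percent. The Sox motif CATTGTT was in 0 of the 141 member windows, 1.08 percent of the windows of the other risers, 2.04 percent of those of the tested genes and 3.78 percent of all. A match is a string of letters and not a bound site, and these are counts with no test. A Klf match was in 14 member windows, among them those of Zfp42, Tjp3, Apobec1, Cbs, Ckmt1 and Smagp. These shares count windows and not genes, and windows of a gene can overlap, as did those of Necab3 with a Klf match. The following 250 bases before the start are printed to show these matches in members described below, with the matches in capitals: Zfp42 (chr8:43307010-43307259, minus strand, octamer then Klf, both on the reverse strand), Tjp3 (chr10:81291582-81291831, minus strand, Klf), Apobec1 (chr6:122602445-122602694, minus strand, Klf) and Cldn4 (chr5:134946935-134947184, minus strand, 2 AP-1 matches). The last line is the interval between Bhmt2 and Dmgdh (chr13:93674303-93674432, plus strand), which held none of the 6 motifs.
Zfp42: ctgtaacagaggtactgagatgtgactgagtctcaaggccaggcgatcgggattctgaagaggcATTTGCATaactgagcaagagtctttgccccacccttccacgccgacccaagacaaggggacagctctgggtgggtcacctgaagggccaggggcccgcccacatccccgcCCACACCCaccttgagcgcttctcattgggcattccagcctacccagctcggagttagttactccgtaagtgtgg
Tjp3: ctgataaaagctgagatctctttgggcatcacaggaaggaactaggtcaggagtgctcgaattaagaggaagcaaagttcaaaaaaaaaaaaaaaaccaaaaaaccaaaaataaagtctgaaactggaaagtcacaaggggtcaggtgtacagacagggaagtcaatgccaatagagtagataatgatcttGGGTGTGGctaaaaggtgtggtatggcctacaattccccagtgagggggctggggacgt
Apobec1: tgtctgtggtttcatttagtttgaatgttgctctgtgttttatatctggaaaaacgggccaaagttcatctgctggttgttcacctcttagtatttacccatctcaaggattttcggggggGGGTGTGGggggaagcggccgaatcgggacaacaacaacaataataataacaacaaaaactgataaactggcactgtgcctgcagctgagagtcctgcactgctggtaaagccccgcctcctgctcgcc
Cldn4: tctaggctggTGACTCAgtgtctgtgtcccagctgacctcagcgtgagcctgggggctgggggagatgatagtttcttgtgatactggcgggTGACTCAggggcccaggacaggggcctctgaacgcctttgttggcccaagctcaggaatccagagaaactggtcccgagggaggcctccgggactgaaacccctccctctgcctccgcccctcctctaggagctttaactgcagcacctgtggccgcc
Bhmt2-Dmgdh interval: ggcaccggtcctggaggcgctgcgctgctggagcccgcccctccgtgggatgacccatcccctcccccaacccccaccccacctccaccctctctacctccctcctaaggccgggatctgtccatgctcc

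The tested comparisons use libraries outside the choice. In the fit over all 26 libraries, a gene was called with limma at a Benjamini-Hochberg adjusted p below 0.05 and a log2 fold of at least 1. All 173 members passed the filter on low values, as their OSK day 7 level ensured. At OSK day 5 against day 1, libraries that belong to the same course as the choice but were not used in it, 113 members (65.3 percent) rose, against 5.52 percent of all tested genes, with a median log2 fold of 2.99. limma called 0 members lower, against 5.07 percent of tested genes, with 1 lower at an unadjusted p below 0.05. The choice favours genes low at the start, and the members' median value on day 1 was 6 and 5, so few could be called lower. Of the 201 other risers, 118 rose (58.7 percent). The median over members includes genes listed at 0 on day 1, and 21 of the 113 were listed at 0 in both day 1 libraries. Without replicate 1 of OSK day 5, the library that stood apart, 102 members rose, and without replicate 2 of OSK day 5 the count was 73.

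**Figure D3:**
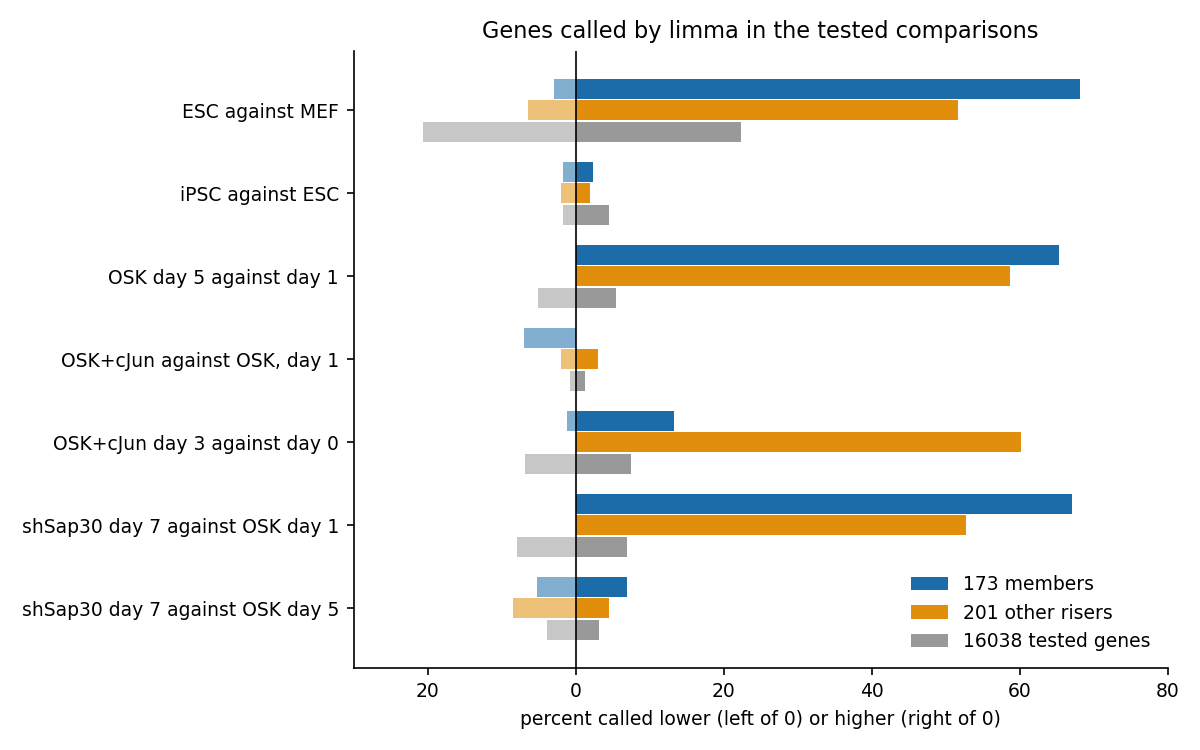
Percent of the 173 members, of the 201 other risers and of the 16038 tested genes that limma called higher (right of 0) or lower (left of 0, paler) in each of the 7 comparisons that use none of the libraries of the choice. Members were called higher in 65.3 percent at OSK day 5 against day 1, and in 13.3 percent at OSK+cJun day 3 against day 0, where 60.2 percent of the other risers were.

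In the Jun arm, OSK+cJun day 3 against day 0 gave 23 members that rose (13.3 percent, against 7.44 percent of all tested genes) and 2 that fell (against 6.9 percent), with a median log2 fold of 0.50. The members' median value at OSK+cJun day 0 was 2 and 1, which left little room to fall. Among the other risers 121 rose (60.2 percent). The members and the other risers were told apart by their OSK+cJun level on day 7, so a lower share among members in the same arm is part of what was chosen, although these libraries were not used. The 23 held Trh, Tdh, Gpa33, Alpl, Cdh1, Spint1 and Dmgdh, and the 2 that fell were Igfbp2 and Slc35f2. The count of 23 was 11 without replicate 1 of OSK+cJun day 3 and 13 without replicate 2 of OSK+cJun day 0. At day 1, OSK+cJun against OSK gave 12 members that were lower (6.94 percent, against 0.742 percent of all tested genes), with a median log2 fold over members of -0.50. They were Trh, Tdh, Ahsg, Nfasc, Lix1, Gpa33, Rec8, Cnpy1, Ak4, Pip5k1b and 2 with clone symbols, named here after their values were seen. limma called 0 members higher with Jun, against 1.24 percent of tested genes, with 1 higher at an unadjusted p below 0.05. The count of 12 was 2 without replicate 1 of OSK+cJun day 1 and 2 without replicate 2 of OSK day 1.

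Trh encodes the precursor of thyrotropin-releasing hormone, and it had the largest difference between days 7 and 0 of the members. Under OSK it stood at 4 and 1 on day 0, 25 and 94 on day 1, 3769 and 6116 on day 3, 3030 and 4302 on day 5 and 6923 and 4302 on day 7. With added Jun it was listed at 0 in both day 1 libraries, and was at 27 and 28 on day 3 and 397 and 263 on day 7. At day 1 it was therefore present in both OSK libraries and in neither OSK+cJun library, a difference called by limma (adjusted p = 0.00166). Trh rose from day 1 to day 5 of OSK by 6.18 (SE 0.79, adjusted p = 7.52e-05) and from day 0 to day 3 of OSK+cJun by 4.04 (SE 0.79, adjusted p = 0.00175). It was at 4006 and 8974 with the hairpin, 1 library below and 1 above both OSK day 7 libraries, at 319 and 662 in iPSC and at 106 and 771 in ESC. The same high values recur because the normalisation gives each rank the same value in every library.

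Tdh encodes threonine dehydrogenase, which mouse embryonic stem cells use to break down threonine into glycine and acetyl-CoA. It stood at 22 and 45 at OSK day 1, 357 and 444 on day 3, 844 and 966 on day 5 and 1079 and 539 on day 7. With added Jun it was at 0 and 2 on day 1, 12 and 5 on day 3 and 26 and 17 on day 7. The 2 arms did not overlap at any of those matched days. At day 1 Tdh was lower with Jun by a log2 fold of -4.23 (SE 0.61, limma adjusted p = 0.0016), and it rose from OSK day 1 to day 5 by 4.80 (SE 0.61, adjusted p = 4.9e-05). It was at 510 and 385 with the hairpin, below both OSK day 7 libraries, and at 2803 and 3614 in ESC, above MEF (2 and 0) by a log2 fold of 10.84 (SE 0.61, adjusted p = 1.75e-10).

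Gpa33, a cell surface glycoprotein of the gut epithelium, and Kbtbd11, of the BTB and kelch family, followed like courses. Gpa33 was at 25 and 78 at OSK day 1, 620 and 1097 on day 3 and 740 and 1016 on day 7, against 3 and 7, 14 and 37, and 88 and 76 with added Jun. It rose from day 0 to day 3 of OSK+cJun by 3.28 (SE 0.55, limma adjusted p = 0.000386). Kbtbd11 was at 8 and 24 at OSK day 1, 544 and 936 on day 5 and 948 and 999 on day 7, and at 42 and 39 at OSK+cJun day 7. Its OSK day 5 level was above that of day 1 by a log2 fold of 5.57 (SE 0.60, adjusted p = 1.26e-05).

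The pluripotency members, 12 genes grouped by function after the values were seen, came up at different times and to different parts of the ESC level. Sall4, Zfp42, Gdf3, Morc1, Nr5a2, Zscan10, Gbx2, Tdh and Alpl were past the midpoint of their rise by day 3 or 5, and Nanog, Esrrb and Dppa5a on day 7. All 12 had an ESC mean of at least 30, as did 112 of all 173 members. All 12 were higher in ESC than in MEF, as were 68.2 percent of members and 22.4 percent of tested genes. From OSK day 1 to day 5, 10 of the 12 rose, against 65.3 percent of members and 5.52 percent of tested genes. Of the 38 naive and core pluripotency regulators listed, 7 were members. Among the 38, 10 rose from OSK day 1 to day 5, and 5 rose from day 0 to day 3 of OSK+cJun, against 7.44 percent of tested genes. The 10 include the members Gbx2, Nanog, Nr5a2, Sall4, Zfp42 and Zscan10, which were chosen for a rise under OSK.

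Nanog, a homeobox factor of the pluripotency network, was at 14 and 3 at OSK day 0, 0 and 1 on day 1, 2 and 1 on day 3, 9 and 19 on day 5 and 111 and 179 on day 7. With added Jun both day 7 libraries were at 5. It was at 6 and 27 with the hairpin and at 4616 and 4616 in iPSC and 5023 and 4616 in ESC, so that OSK day 7 lay far under the pluripotent lines. The log2 fold from OSK day 1 to day 5 was 3.32 (SE 0.83, limma adjusted p = 0.0117), and it was not called without replicate 2 of OSK day 5 (2.82, adjusted p = 0.0785) or without replicate 1 of OSK day 1 (2.82, adjusted p = 0.112).

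Esrrb, an orphan nuclear receptor, was at 5 and 8 at OSK day 5 and 63 and 60 on day 7, at 2 and 1 at OSK+cJun day 7, at 17 and 24 with the hairpin and at 2402 and 3030 in ESC. Its log2 fold from OSK day 1 to day 5 of 2.08 did not pass (SE 0.94, limma adjusted p = 0.161), while ESC was above MEF by 10.90 (SE 0.94, adjusted p = 3.41e-08). Dppa5a, an RNA-binding protein of early embryos, was at 1 and 8 at OSK day 5 and 45 and 62 on day 7, at 2 and 1 with added Jun, at 11 and 3 with the hairpin and at 6923 and 6116 in ESC. Its day 5 libraries overlapped those of day 1 (1.08, SE 0.70, adjusted p = 0.353). For these genes the members' rise by day 7 reached a level that was low beside ESC.

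Zfp42 (Rex1), a zinc finger marker of naive stem cells whose promoter is printed above, was at 0 and 1 at OSK day 1, 33 and 44 on day 3, 53 and 69 on day 5 and 85 and 111 on day 7. It was at 9 and 7 at OSK+cJun day 7, at 21 and 17 with the hairpin and at 1634 and 1567 in ESC. The OSK+cJun and hairpin libraries were all below the OSK day 7 libraries. Gdf3, a TGF-beta family ligand, was at 3 and 0 at OSK day 1, 232 and 169 on day 5 and 197 and 165 on day 7, and at 13 and 12 at OSK+cJun day 7 and 46 and 54 with the hairpin. It rose from OSK day 1 to day 5 by 6.64 (SE 0.66, limma adjusted p = 4.71e-06).

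Sall4, a zinc finger factor of stem cells, had hairpin libraries within the range of OSK day 7. It was at 4 and 3 at OSK day 1, 153 and 92 on day 5, 293 and 172 on day 7, 22 and 23 at OSK+cJun day 7 and 174 and 248 with the hairpin. It rose from OSK day 1 to day 5 by 4.74 (SE 0.70, limma adjusted p = 0.000187), and the hairpin libraries were above OSK day 1 by 5.54 (SE 0.70, adjusted p = 4.44e-05). Alpl, the alkaline phosphatase used to stain stem cell colonies, was at 16 and 11 at OSK day 1, 2122 and 791 on day 5 and 1162 and 1987 on day 7. It was at 513 and 215 with added Jun and 252 and 298 with the hairpin on day 7, and rose from OSK day 1 to day 5 by 6.50 (SE 1.08, adjusted p = 0.000743). Of the 12 pluripotency members 8 were at least 1 lower on the log2 scale with the hairpin than at OSK day 7, a size reached by 56.1 percent of all members and 12.7 percent of tested genes. Nr5a2, at 86 and 135 against 126 and 54, was among those that were not.

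**Figure D4:**
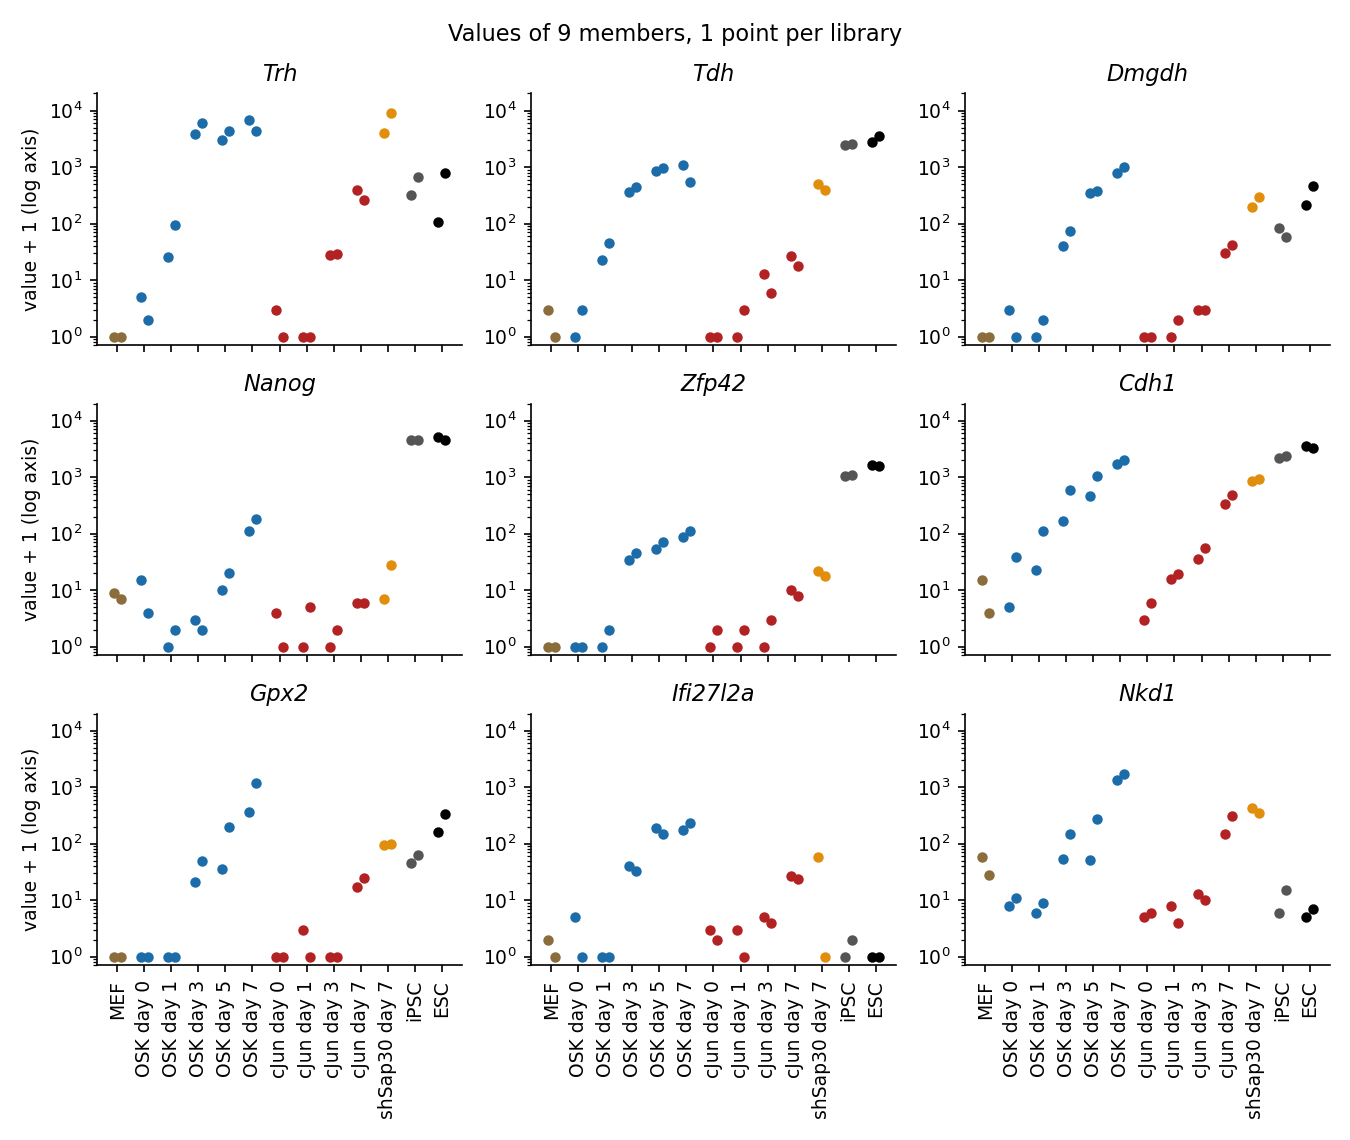
Values of 9 members in each of the 26 libraries, as value + 1 on a log axis, with MEF in brown, OSK in blue, OSK+cJun in red, the Sap30 hairpin in orange, iPSC in grey and ESC in black. Nanog stayed under 20 until OSK day 5, while Trh and Tdh were past 300 at OSK day 3, and Ifi27l2a and Nkd1 were high at OSK day 7 and under 20 in ESC.

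The epithelial members, 14 genes of junctions, polarity and membrane proteases, were mostly late. The midpoint was reached on day 1 by 1, on day 3 by 3, on day 5 by 4 and on day 7 by 6. Of 54 epithelial junction and splicing genes listed, 11 were members and 12, among them Epcam, Krt8, Krt18 and Ocln, were other risers, so that the Jun threshold divided genes of this class. At day 7 the 54 summed to 14423 and 19451 under OSK and 20480 and 20911 with added Jun. Dsp made up much of the sum with added Jun (7721 and 6123, against 1099 and 1056 under OSK). Krt8 (614 and 759 against 1402 and 1860) and Ocln (50 and 41 against 93 and 82) were higher with added Jun. Epcam (971 and 2619 against 401 and 731) and Krt18 (106 and 166 against 71 and 79) were lower. Of the 52 listed genes tested, 20 rose from OSK day 1 to day 5, against 5.52 percent of all tested genes, and 22 from day 0 to day 3 of OSK+cJun, against 7.44 percent. The 20 include members chosen for a rise under OSK, among them Cdh1, Cldn4 and Spint1. Keratinocyte markers, which mark another epithelial cell, summed to 801 and 581 over 21 genes at OSK day 7 and to 4654 and 2307 at OSK+cJun day 7, and none of them was a member. Perp made up most of the sum with added Jun (2545 and 1255, against 274 and 217 at OSK day 7). Lama3 (686 and 175 against 103 and 69), Sfn (629 and 402 against 230 and 128) and Krt6a (277 and 210 against 19 and 4) were also higher. Krt5 and Lor were at 1 or less in these 4 libraries, and Trp63 was at 18 and 18 against 42 and 8.

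Cdh1 (E-cadherin), the adhesion protein of epithelial junctions, was at 4 and 37 at OSK day 0, 22 and 112 on day 1, 165 and 585 on day 3, 467 and 1036 on day 5 and 1704 and 1993 on day 7. With added Jun it was at 15 and 18, 34 and 54, and 335 and 484 at days 1, 3 and 7. It was at 855 and 938 with the hairpin and 3614 and 3275 in ESC, above MEF (14 and 3) by a log2 fold of 8.80 (SE 0.87, limma adjusted p = 2.76e-07). The log2 fold from OSK day 1 to day 5 was 3.77 (SE 0.87, adjusted p = 0.00753), and the call was lost without replicate 2 of OSK day 5 (3.20, adjusted p = 0.0574) and without replicate 1 of OSK day 1 (2.62, adjusted p = 0.125). Replicate 2 was above replicate 1 at each of the 5 OSK days.

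The tight junction claudins came later. Cldn4 was listed at 0 in both libraries of OSK days 0 and 1, and was at 0 and 5 on day 3, 14 and 38 on day 5 and 124 and 332 on day 7, against 12 and 10 at OSK+cJun day 7. Its neighbour Cldn3 was at 7 and 18 at OSK day 5, 119 and 250 on day 7 and 19 and 27 with added Jun, and Cldn7 at 4 and 18, 50 and 145, and 12 and 10. In the hairpin libraries Cldn4 was at 226 and 121, overlapping its widely spread OSK day 7 libraries (124 and 332). Its neighbour Cldn3 was at 45 and 26, below both of its OSK day 7 libraries, and this difference between the 2 genes was not tested. Spint1, an inhibitor of membrane serine proteases, was at 6 and 6 at OSK day 1, 104 and 139 on day 5 and 277 and 606 on day 7, and rose from OSK day 1 to day 5 by 4.11 (SE 0.58, limma adjusted p = 0.000137). Its target protease St14 (matriptase) was at 326 and 586 at OSK day 7, 80 and 143 with added Jun and 420 and 679 with the hairpin, and was the member nearest to the Jun threshold. Of the 14 epithelial members, grouped after values were seen, 11 were at least 1 lower with the hairpin than at OSK day 7. The exceptions were Cldn4, Esrp1 and St14. That size was reached by 56.1 percent of all members and 12.7 percent of tested genes.

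Enzymes of threonine and methyl donor metabolism made up a small group of 5: Tdh, Bhmt, Bhmt2, Dmgdh and Cbs. As background, Bhmt passes a methyl group from betaine to homocysteine, Bhmt2 does so from S-methylmethionine, Dmgdh breaks down the dimethylglycine that Bhmt leaves, and Cbs turns homocysteine to cystathionine. Dmgdh was at 0 and 1 at OSK day 1, 40 and 72 on day 3, 344 and 383 on day 5 and 798 and 1019 on day 7, and at 29 and 41 at OSK+cJun day 7. It rose from OSK day 1 to day 5 by 8.01 (SE 0.54, limma adjusted p = 8.99e-08). Bhmt2, which shares the 130-base interval with it, was at 6 and 7, 42 and 75, 125 and 180, and 226 and 377 on the same days, and at 28 and 23 at OSK+cJun day 7. Bhmt was later, at 1 and 5 at OSK day 1, 2 and 7 on day 3, 32 and 86 on day 5 and 392 and 427 on day 7, and at 9 and 6 with added Jun on day 7. Bhmt reached the midpoint of its rise on day 5, and Dmgdh and Bhmt2 on day 3. With the hairpin Dmgdh was at 193 and 298, Bhmt2 at 85 and 190 and Bhmt at 105 and 171, each below both OSK day 7 libraries. Cbs was at 49 and 92 at OSK day 7, 2 and 4 with added Jun, 105 and 42 with the hairpin and 370 and 542 in ESC. Of the 30 serine, threonine, glycine and one-carbon enzymes listed, 3 were members (Tdh, Bhmt and Cbs). From OSK day 1 to day 5, 4 of the 30 rose, against 5.52 percent of all tested genes. Tdh and Bhmt, members chosen for a rise under OSK, were among the 4.

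The 16 immune members held parts of antigen presentation by MHC class II, complement and other innate factors, and surface receptors of lymphocytes. Cd74, the invariant chain that escorts class II molecules, was listed at 0 in both libraries of OSK days 0 and 1 and was at 11 and 33 on day 3, 4 and 508 on day 5 and 395 and 758 on day 7. It was at 83 and 146 with added Jun and at 38 and 18 with the hairpin on day 7, and at 2 and 8 in ESC. The class II chain H2-Eb1 was at 46 and 124 at OSK day 7, 10 and 23 with added Jun and 9 and 5 with the hairpin, and H2-DMb1, which helps load peptide, at 36 and 63, 9 and 12, and 0 and 0. All 3 were below both OSK day 7 libraries under the hairpin. H2-Ab1, another class II chain, lay just outside the Jun condition, as given above.

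Ifi27l2a, an interferon-induced gene, was listed at 0 in both OSK day 1 libraries and was at 191 and 145 on day 5 and 173 and 226 on day 7, against 26 and 23 at OSK+cJun day 7 and 57 and 0 with the hairpin. Pglyrp1, which binds bacterial peptidoglycan, was at 269 and 605 at OSK day 7, 20 and 27 with added Jun and 50 and 38 with the hairpin. Srgn (serglycin), the core protein of secretory granules, was at 721 and 909 at OSK day 5, 909 and 544 on day 7, 120 and 53 with added Jun and 298 and 373 with the hairpin, and at 13 and 13 in ESC. Of the 16, 14 rose from OSK day 1 to day 5, against 65.3 percent of all members and 5.52 percent of tested genes. With the hairpin 8 were at least 2 lower than at OSK day 7, as were 52 of the 173 members and 3.57 percent of tested genes. The 18 macrophage and blood markers listed held no member and summed to 263 and 264 at OSK day 7, 705 and 401 at OSK+cJun day 7 and 396 and 1184 with the hairpin. Cd68 made up most of the sum with added Jun (527 and 351, against 47 and 105 at OSK day 7), and Laptm5 most of that with the hairpin (252 and 941, against 128 and 110 at OSK day 7 and 9 and 18 with added Jun). Others of the list differed. Tyrobp was at 0 in all 6 of these day 7 libraries, and Csf1r was at 4 or less. Ptprc was at 44 and 18 at OSK day 7, 79 and 0 with added Jun and 16 and 20 with the hairpin. Itgam was at 17 and 13, 48 and 22, and 54 and 114 in the same order. The 23 interferon response genes listed, also with no member, summed to 1035 and 1237 at OSK day 1, 17728 and 20515 on day 7, 22302 and 21171 with added Jun and 7670 and 5735 with the hairpin. Gbp2 made up a large part of the sum with added Jun (6942 and 4629, against 2133 and 1798 at OSK day 7). Others differed, and Oas2 was lower with added Jun (913 and 606 against 1456 and 1251). The part of either list in the members' values was not tested.

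Detoxification and redox enzymes formed a group of 8, made after values were seen. All 8 were lower with the hairpin than at OSK day 7 by at least 1, as were 56.1 percent of all members and 12.7 percent of tested genes. By at least 2, 7 were lower, as were 52 of the 173 members and 3.57 percent of tested genes. Gpx2, a glutathione peroxidase of the gut, was listed at 0 in both libraries of OSK days 0 and 1, and was at 20 and 48 on day 3, 34 and 193 on day 5 and 359 and 1180 on day 7. It was at 16 and 24 with added Jun and 93 and 96 with the hairpin on day 7. Fmo1, a flavin monooxygenase, was at 22 and 20 at OSK day 1, 400 and 363 on day 5 and 412 and 403 on day 7, at 55 and 43 with added Jun and 52 and 19 with the hairpin. It rose from OSK day 1 to day 5 by 4.12 (SE 0.39, limma adjusted p = 3.38e-06), and the hairpin libraries were below OSK day 5 by -3.55 (SE 0.39, adjusted p = 0.000157). The others include Aoc1, a diamine oxidase (225 and 257 at OSK day 7, 24 and 16 with added Jun, 6 and 16 with the hairpin), and Cyp2b23, a cytochrome P450, at 139 and 230, 2 and 3, and 51 and 70. Cyp2b23 and Bhmt had the widest day 7 differences between OSK and OSK+cJun among the named members, 5.70 and 5.62.

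Of the 5 members linked to Wnt signalling, grouped after their values were seen, Nkd1 was at least 1 lower with the hairpin than at OSK day 7, and the median difference was 0.28. Nkd1, an inhibitor in the pathway that Wnt signals induce, was at 5 and 8 at OSK day 1, 51 and 273 on day 5 and 1344 and 1729 on day 7, at 148 and 312 with added Jun and at 429 and 344 with the hairpin. It was at 4 and 6 in ESC, below MEF (57 and 27) by a log2 fold of -2.77 (SE 0.67, limma adjusted p = 0.00208), and the hairpin libraries were above OSK day 1 by 5.71 (SE 0.67, adjusted p = 2.66e-05). Cdx1, a caudal homeobox gene, was listed at 0 in all 8 OSK+cJun libraries and in both libraries of OSK days 0 and 1. It was at 63 and 18 at OSK day 7, 85 and 62 with the hairpin and 198 and 214 in ESC. Tnfrsf19, a receptor of the tumour necrosis factor family, was at 159 and 130, 5 and 3, and 257 and 107 on day 7 of OSK, OSK+cJun and OSK with the hairpin, and the ligand Wnt8a at 53 and 26, 3 and 4, and 71 and 29. The hairpin libraries of Tnfrsf19 and Wnt8a overlapped those of OSK day 7.

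Some members are known from neurons, and most of these were low in ESC. Of 14 such genes, grouped after values were seen, 4 had an ESC mean of at least 30, as did 112 of all 173 members. From OSK day 1 to day 5, 9 of the 14 rose, near the 65.3 percent of all members, against 5.52 percent of tested genes. Sez6, a protein of dendrites and synapses, was listed at 0 in both libraries of OSK days 0 and 1, and was at 84 and 80 on day 5, 385 and 434 on day 7, 22 and 23 with added Jun and 175 and 440 with the hairpin, against 2 and 0 in ESC. Nfasc, an adhesion protein of axons, was at 336 and 478 at OSK day 7, 58 and 58 with added Jun, 497 and 702 with the hairpin and 3 and 3 in ESC. Grin1, a glutamate receptor subunit, was at 195 and 553, 9 and 8, 26 and 66, and 136 and 182 in the same order. The 20 neural markers listed held no member, and summed to 4136 and 2986 at OSK day 7 and 16759 and 15610 at OSK+cJun day 7, the opposite order to these members. Nefl made up most of the sum with added Jun (11667 and 11668, against 1905 and 965 at OSK day 7), while Mapt was lower (60 and 31 against 233 and 265).

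Among secreted factors, Ptn (pleiotrophin) and Mdk (midkine), related heparin-binding growth factors, were both in the set. Ptn was at 100 and 125 at OSK day 0, 107 and 376 on day 5 and 2074 and 2256 on day 7, at 236 and 396 with added Jun and at 517 and 546 with the hairpin. In MEF it was at 4006 and 8974 and in ESC at 3 and 10, a log2 fold of -9.82 (SE 0.58, limma adjusted p = 5.41e-10), so OSK day 7 lay between its low level in ESC and its high level in fibroblasts. Mdk was at 914 and 937 at OSK day 7, 230 and 142 with added Jun and 580 and 547 with the hairpin. Igfbp2, an insulin-like growth factor binding protein, was at 149 and 67 at OSK day 0, 7 and 16 on day 3, 7 and 70 on day 5 and 923 and 2153 on day 7. With added Jun it fell from day 0 (148 and 81) to day 3 (6 and 2) by 4.59 on the log2 scale (SE 0.86, adjusted p = 0.00117) and was at 78 and 73 on day 7. Its mean was lowest on day 3 in both arms.

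The highest members at OSK day 7 also included Slc38a6, an amino acid transporter, at 11672 and 6131, against 1079 and 834 with added Jun, 2546 and 1994 with the hairpin and 978 and 648 in ESC. Ak4, an adenylate kinase of mitochondria, was at 2152 and 2260, 322 and 365, 1674 and 1294, and 3774 and 2310 in the same order. Gpr179, an orphan receptor, was at 1292 and 970, 188 and 33, 265 and 382, and 62 and 27. Among germline genes, Rec8, a meiotic cohesin, was at 184 and 417 at OSK day 7, 18 and 23 with added Jun and 126 and 336 with the hairpin, and Piwil2, of the Piwi family, at 46 and 41, 8 and 5, and 6 and 9. Myb, a transcription factor of blood progenitors, was at 654 and 599, 127 and 102, and 73 and 90. The members least lowered by Jun on day 7, beside St14, were Pip5k1b (174 and 246 against 72 and 33), Minar2 (72 and 134 against 15 and 34), Gdpd3 (55 and 77 against 15 and 14) and H2-DMb1.

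Members were next set against the pluripotent lines, which the choice did not use. In ESC against MEF 118 members were higher (68.2 percent, against 22.4 percent of all tested genes) and 5 lower (against 20.6 percent), with a median log2 fold of 4.36. The members' median value in MEF was 2 and 1, which left little room for a lower level in ESC. Of the 201 other risers 104 were higher (51.7 percent). Of the 118, 34 were listed at 0 in both MEF libraries. The 5 lower members were Ptn, Nkd1, Slc1a3, Cbr2 and Apba2, and the count was 8 without replicate 2 of MEF. An ESC mean of at least 30 was seen for 112 members, and 61 were under it. OSK day 7 was above ESC by at least 2 on the log2 scale for 65 members, ESC was above OSK day 7 by as much for 22, and 86 were within 2. The choice required a high level at OSK day 7, so the lean of these counts to OSK day 7 is in part what was chosen. The shares of all tested genes are not given for these ESC levels and differences. The members highest at OSK day 7 relative to ESC were Ptn, Nkd1, Aoc1, Sez6, Ifi27l2a, Unc79, Dio2 and Cd74, and those far higher in ESC included Dppa5a, Esrrb, Nanog and Zfp42. The set, chosen to be high at OSK day 7, therefore held genes with a high level in ESC and genes low in both pluripotent lines. Of the 173, 56 had means under 30 in both iPSC and ESC.

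In iPSC against ESC, 4 members were higher (2.31 percent, against 4.57 percent of all tested genes) and 3 lower (1.73 percent, against 1.65 percent). The median log2 fold over members was -0.40, against 0.00 over all tested genes, with 47 of 173 above 0. At an unadjusted limma p below 0.05, 8 members were higher and 21 lower, and of the 16038 tested genes 1705 were higher and 1286 lower. Of the 201 other risers, 8 were higher and 30 lower at that p, with a median log2 fold of -0.18. The lean to lower values in iPSC was thus not particular to the members. Ptn was at 85 and 120 in iPSC and 3 and 10 in ESC, a log2 fold of 3.94 (SE 0.58, limma adjusted p = 0.000229). Bhmt was at 61 and 33 in iPSC and 386 and 646 in ESC, a log2 fold of -3.45 (SE 0.64, adjusted p = 0.00187), and Cd2, an adhesion protein of T cells, at 1 and 0 against 20 and 43, a log2 fold of -4.43 (SE 0.57, adjusted p = 4.72e-05). The third gene lower in iPSC was Dmgdh, so that 2 of the 3 are neighbours on chromosome 13. The others higher in iPSC were Slc1a3, Apba2 and a gene with a clone symbol. The count lower in iPSC was 7 without replicate 1 of iPSC and 8 with 5 added before the logarithm. Fibroblast markers summed to 37597 and 51824 in iPSC and 13062 and 24012 in ESC, 24 of 30 being higher in iPSC, and their part in the members' differences was not tested.

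The Sap30 hairpin was sampled on day 7 alone, and its difference from OSK day 7 is a description because the OSK day 7 libraries were used to choose the members. The median log2 difference over members was -1.14, ranging from -5.66 to 2.17. It was at or below -1 for 97 members (56.1 percent, against 12.7 percent of all tested genes), for 100 of the 201 other risers (49.8 percent, median -0.97), and at or above 1 for 6 members (against 11.8 percent). For 95 members the difference was at least that size and the hairpin libraries lay apart from those of OSK day 7, against 10.3 percent of tested genes. With members chosen on replicate 1 alone and the day 7 value taken from replicate 2, 94 of 174 were lower by at least 1, with a median of -1.15, and in the reverse order 105 of 192, with a median of -1.18. Of the 112 members with an ESC mean of at least 30, 58 were lower by at least 1, and of the other 61, 39 were.

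The members with the widest drop under the hairpin were H2-DMb1, Rgn, Myl1, Ifi27l2a, Klk1, Aoc1, Cd74 and Cbr2. Rgn and Myl1 stood at 0 in both libraries of the hairpin and of OSK+cJun day 7, but each was also at 0 in single libraries of other groups that had 15 or more in the other replicate, so these values are uneven. At the other end Platr13, Phf21b, Saxo1, Fgfbp3, Cdx1, Nkx1-2, Bex1 and Nfasc were highest relative to OSK day 7. Phf21b, a PHD finger protein, was at 42 and 29 at OSK day 7 and 139 and 116 with the hairpin, and Fgfbp3, a binding protein of fibroblast growth factors, at 140 and 89 and 392 and 157. Both were below 20 at OSK+cJun day 7. The homeobox gene Nkx1-2 was listed at 0 in all 8 OSK+cJun libraries and was at 51 and 10 at OSK day 7 and 52 and 38 with the hairpin.

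**Figure D5:**
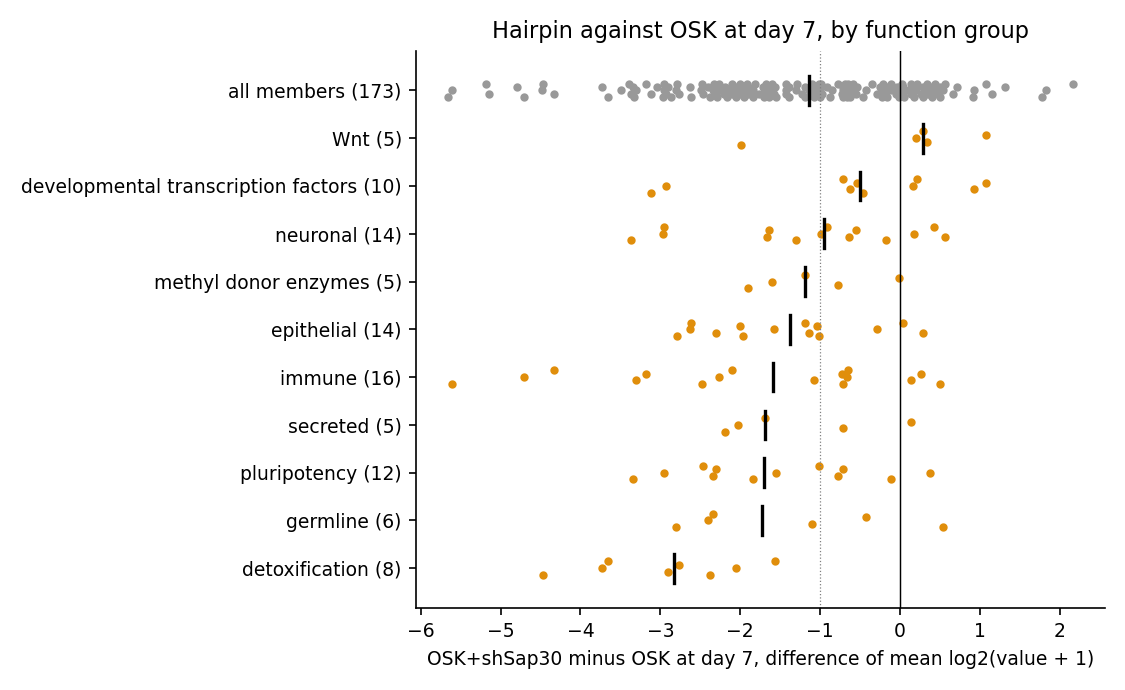
Difference between OSK+shSap30 and OSK on day 7 in mean log2(value + 1), 1 point per member, by function group and for all 173 members, with black bars at the medians, a solid line at 0 and a dotted line at -1. The groups were made after values were seen. All 8 detoxification members lie left of the dotted line, as do 97 of the 173 members, and 4 of the 5 Wnt members lie right of 0.

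Of the comparisons of the hairpin, 2 avoid the OSK day 7 libraries, though in both the day and the hairpin cannot be told apart. In every comparison with OSK, day 7 included, the hairpin also cannot be told apart from its lentivirus or from a separate making of its libraries. Against OSK day 1, 116 members were higher (67.1 percent, against 6.92 percent of all tested genes), with a median log2 fold of 3.45, and 106 of the 201 other risers (52.7 percent). limma called 0 members lower, against 7.92 percent, with 0 lower also at an unadjusted p below 0.05. The low level of the members at OSK day 1 left little room for a lower call. Of the 116, 19 were listed at 0 in both OSK day 1 libraries. Trh was higher by 6.91 (SE 0.79, limma adjusted p = 2.79e-05) and Dmgdh by 7.41 (SE 0.54, adjusted p = 1.97e-07). Tdh was 3.77 higher (SE 0.61, adjusted p = 0.000351). The other 57 members were not called, and Rgn, Myl1, Pip5k1b and Cbr2 were among those with a mean log2 level below that of OSK day 1. Against OSK day 5, 12 members were higher (6.94 percent, against 3.11 percent) and 9 lower (5.2 percent, against 3.92 percent), with a median log2 fold of 0.21. The 9 were Fmo1, Klk1, H2-DMb1, Ifi27l2a, Cfb, Aoc1, Gstp2, Nlgn3 and Morc1, named after their values were seen. Klk1, a kallikrein protease, was at 140 and 25 at OSK day 5, 58 and 101 on day 7 and 1 and 5 with the hairpin, a log2 fold against day 5 of -4.13 (SE 0.70, adjusted p = 0.00165). The count of 12 was 0 without replicate 1 of OSK day 5, the library that stood apart, 3 without replicate 1 of the hairpin and 5 without its replicate 2, and 17 without replicate 2 of OSK day 5. The count of 9 was 7 without replicate 1 and 3 without replicate 2 of OSK day 5.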

How the data were processed

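Values were read from the authors' deposited table of 18198 genes and 26 libraries. As deposited by the authors, each value is a score, in whole numbers whose distribution is nearly the same in every library, as quantile normalisation and rounding leave it. How it was normalised is not given in the sources used here. The values are not counts, and depth cannot be read from them. Library totals ran from 4619641 to 4624161. Libraries were made with a TruSeq RNA kit and read on a NextSeq 500, per the labels' protocols. bcl2fastq, Bowtie2, RSEM and mm10 are named without versions, per the submitters' processing notes.

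The score was transformed as log2(value + 1). The 16038 genes that reached 10 in 2 or more libraries were fitted with limma 3.58.1 (R 4.3.3, statmod 1.5.0) over the 26 libraries, with a mean per group and with trended, robust variance moderation. Calls needed a Benjamini-Hochberg adjusted p below 0.05 over all tested genes and a log2 fold of at least 1. All 7 comparisons use libraries outside the choice of members. The procedure was tested on simulated data. No depth-based interval could be given. 0 sample columns were left unused.

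The members and gene lists were chosen with earlier results of these data known, and the function groups were made after values were seen. Named genes are the members on a list, the 12 highest at OSK day 7, the 8 at each end of the hairpin difference, the 8 highest relative to ESC, the 8 most and 5 least lowered with added Jun, and 3 on each side of the thresholds. Other members were added to show a group or a test after their values were seen. Predicted genes and clones were counted and not named. Alternatives were another pseudocount, no filter on low values, no variance trend, the compared libraries alone, median centring, a replicate block, other thresholds of the choice and leaving out each library. Symbols were given for 18039 genes.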

Additional observations from a re-analysis of the deposited data

How the results depend on the processing

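The number of members was 102 with a Jun threshold of 3 and 95 with a day 7 level of 100, and 174 to 192 on single replicates. With 5 added before the logarithm, members lower in iPSC than ESC were 8, those higher at OSK+cJun day 3 than day 0 were 15, and those higher and lower with the hairpin than at OSK day 5 were 22 and 15. With the 4 compared libraries alone, where the spread rests on fewer samples, the counts were 1 higher and 6 lower in iPSC than ESC, 47 higher at OSK day 5 than day 1, 0 lower with Jun at day 1, 7 higher at OSK+cJun day 3, and 0 higher and 0 lower with the hairpin than at OSK day 5.

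Leaving out each library of a comparison in turn gave 107 to 109 members higher and 5 to 8 lower in ESC than MEF, 3 to 4 higher and 2 to 7 lower in iPSC than ESC, 73 to 102 higher at OSK day 5 than day 1, 2 to 9 lower with Jun at day 1, 11 to 16 higher and 2 to 3 lower at OSK+cJun day 3 than day 0, 96 to 105 higher with the hairpin than at OSK day 1, and 0 to 17 higher and 3 to 7 lower with the hairpin than at OSK day 5. Members at least 1 lower with the hairpin than at OSK day 7 numbered 92 to 104. Of 350 alternatives to the 35 gene results tabulated, 337 kept the call and direction, 13 lost the call (4 without a library and 9 with the compared libraries alone) and 0 reversed.

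The labels give replicate numbers but no shared source, and pairing by number was not clear from the values: the correlation of replicate differences between groups ran from -0.0883 to 0.331 over 78 pairs of groups, with a median of -0.0013, and 28 were over 0.1. It was 0.265 for OSK+cJun against OSK on day 1 and 0.26 for OSK+cJun day 3 against day 0. Over members, replicate 2 was above replicate 1 by at least 1 in 57, 65 and 36 members at OSK days 3, 5 and 7, and below it by as much in 12, 17 and 12. With the replicate number as a block, members lower in iPSC than ESC were 5, those higher at OSK day 5 than day 1 were 114, those lower with Jun at day 1 were 12, those higher at OSK+cJun day 3 than day 0 were 25, and those higher and lower with the hairpin than at OSK day 5 were 13 and 11. With 2 libraries a group and no counts, small differences of low genes were not resolved.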
